A study of Homo sapiens with 6 samples.

Results

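GAS5 and 9 SNHG genes (SNHG1, SNHG3, SNHG5, SNHG6, SNHG7, SNHG8, SNHG12, SNHG15 and SNHG16) are noncoding genes whose introns carry small nucleolar RNAs. They were taken by symbol, 10 of the 58735 genes in the deposited count table. RNA-seq counts were compared between Huh7 cells, an established human liver cancer line, with ITGB5 knocked down by a short hairpin RNA (shITGB5, 3 libraries) and Huh7 cells with a control hairpin (shcontrol, 3 libraries). All cells were grown in the same serum-containing medium, and libraries were made from total RNA with a directional kit. ITGB5 encodes the integrin beta 5 subunit, which pairs with the alpha v subunit as a receptor for vitronectin. The labels give neither the number of hairpins behind each group nor whether libraries came from separate cultures. The p-values therefore cover only the variation among these 6 libraries, which could be technical.

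Small nucleolar RNAs (snoRNAs) guide chemical modification of ribosomal RNA: box C/D snoRNAs guide 2′-O-methylation and box H/ACA snoRNAs guide pseudouridylation. Most human snoRNAs are cut from the introns of a host transcript after splicing. In the hosts described here the spliced RNA codes for no known protein. Many such hosts start transcription in a terminal oligopyrimidine (TOP) tract, the start shared by ribosomal protein mRNAs, and their spliced RNAs are commonly degraded by nonsense-mediated decay when ribosomes translate their short reading frames. GAS5 was named for its accumulation in growth-arrested cells and can bind the glucocorticoid receptor.

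The libraries held 16563911 to 18011313 counts in shITGB5 and 15777922 to 17476580 in shcontrol, and TMM scaling factors lay between 0.998 and 1.0032. ITGB5 mRNA was lower in every shITGB5 library but remained abundant. It stood at 173, 181 and 174 CPM (counts scaled to the library total) in shITGB5 libraries and at 205, 214 and 217 CPM in shcontrol libraries, a log2 change of -0.27 (SE 0.032; edgeR quasi-likelihood test, Benjamini-Hochberg adjusted p = 2.13e-09). Mitochondrial transcripts took 3.24% to 3.29% of counts in shITGB5 and 3.46% to 3.54% in shcontrol. Of 10 hepatocyte and hepatoma markers, 7 rose and none fell in that test, with a median log2 change of 0.17. Their summed levels were 8510 to 8700 CPM in shITGB5 and 7600 to 7760 CPM in shcontrol. Rises made up 8.31% of all genes tested and falls 6.74%. Where the mean was at least 10 CPM, rises made up 12.7%. Among 6 fibroblast and stellate markers the sums were 190 to 194 CPM in shITGB5 and 163 to 171 CPM in shcontrol, mostly LUM, and DCN had at most 4 counts in a library. Blood and immune markers summed to 34.1 to 36.5 CPM in shITGB5 and 30.2 to 31.6 CPM in shcontrol, nearly all CD14. Endothelial markers summed to 4.16 to 5.49 CPM in shITGB5 and 3.55 to 5.64 CPM in shcontrol, with KDR at 0 in every library. The part of any of these in the results below was not tested, and in bulk RNA fewer cells of a type and less RNA per cell cannot be told apart.

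Of the 10 host genes, SNHG8, SNHG15, SNHG5 and SNHG6 rose in shITGB5 cells, none fell and 6 did not pass the test. The rises were small, between 13.0% and 27.8%. Among all 16577 genes tested, 8.31% rose and 6.74% fell at the same threshold (edgeR, Benjamini-Hochberg adjusted p under 0.05). Among the 10071 tested genes with a mean of at least 10 CPM, where all 10 hosts lie, 12.7% rose. Fitted log2 changes were positive for all 10 hosts, from 0.0043 for GAS5 to 0.35 for SNHG8, with a median of 0.10 against 0 over all genes tested. The signs of GAS5 and SNHG3 depended on which library was left out, so this count is no separate sign of a rise in each host. In 4 hosts every shITGB5 library lay above every shcontrol library, as did 14.7% of all genes tested, and these were the 4 that rose. Counts of the 10 hosts together made up 0.0498% to 0.0532% of each shITGB5 library and 0.047% to 0.0493% of each shcontrol library.

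**Figure D1:**
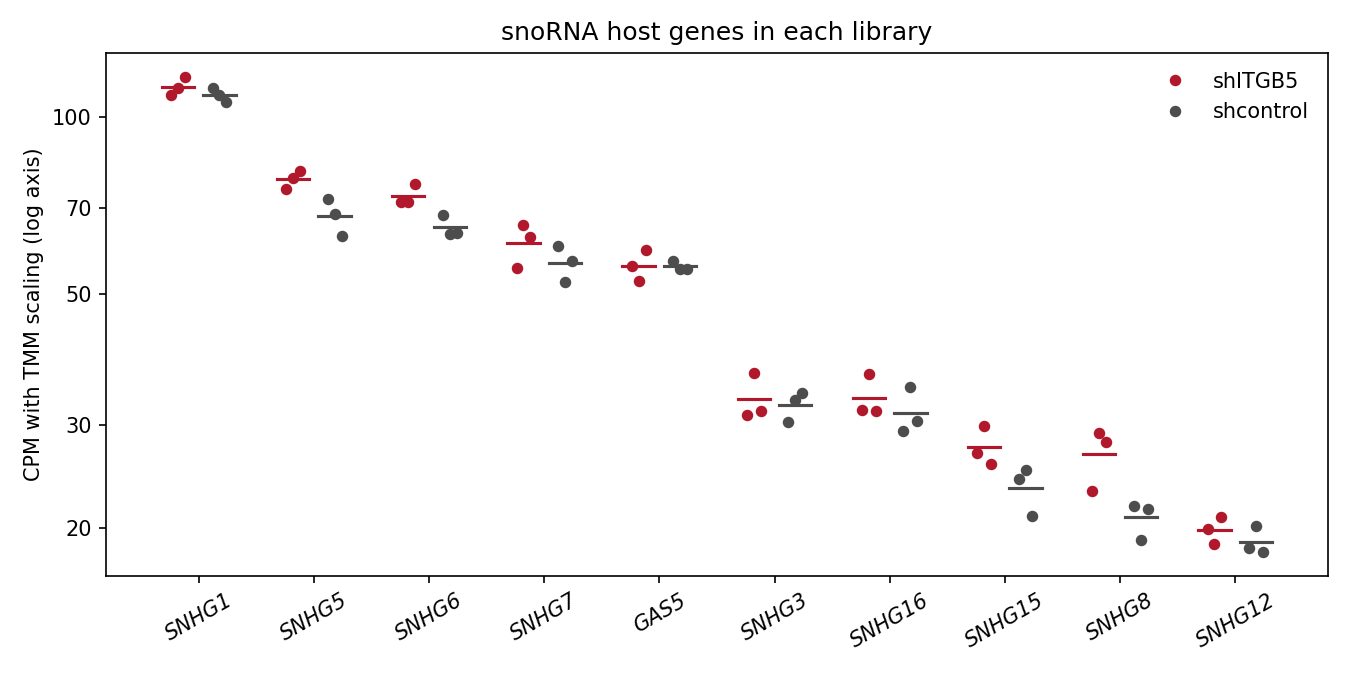
Level of each host gene in every library, in CPM with TMM scaling, with the group mean marked for shITGB5 and shcontrol. SNHG8, SNHG15, SNHG5 and SNHG6 have all 3 shITGB5 points above all 3 shcontrol points, while the points of the other 6 genes overlap.

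Sequences are shown for the 5 hosts with a TATAA or a pyrimidine-led start in the RefSeq start window. They are also shown for 3 hosts with a pyrimidine-led start outside it. An annotated start was counted as pyrimidine-led where a C is followed by at least 4 C or T bases on the gene's strand. At least 1 such start was annotated in GENCODE 29 for 8 of 10 hosts, among them 3 of the 4 that rose (SNHG5, SNHG6 and SNHG8) and 5 of the 6 that did not pass. Over all genes with at least 3 transcripts, 17.1% have such a start, and 2.41% of all transcripts begin that way. The hosts have 3 to 29 annotated transcripts each, and the share over genes is not matched for transcript number. The RefSeq promoter table (GRCh38.p14) held 8 of the 10 hosts; it has no entry for SNHG6 and SNHG15. TATAA on the gene's strand, 45 to 16 bases before the start, was found in 4 of those 8 and in 4.09% of all 35116 windows. The windows below run from 40 bases before to 20 bases from the RefSeq start, 5′ to 3′ on the gene's strand, with TATAA and any pyrimidine tract at an annotated start in capitals. SNHG5 and SNHG8 rose, while SNHG12, SNHG7 and SNHG16 did not pass.
SNHG5 (chr6:85678714-85678773, minus strand): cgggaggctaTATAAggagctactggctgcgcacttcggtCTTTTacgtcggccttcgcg
SNHG8 (chr4:118278722-118278781, plus strand): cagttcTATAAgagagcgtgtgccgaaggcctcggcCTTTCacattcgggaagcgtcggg
SNHG12 (chr1:28581854-28581913, minus strand): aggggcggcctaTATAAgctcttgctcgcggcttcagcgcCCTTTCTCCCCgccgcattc
SNHG7 (chr9:136728165-136728224, minus strand): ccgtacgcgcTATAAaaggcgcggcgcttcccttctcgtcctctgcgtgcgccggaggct
SNHG16 (chr17:76557724-76557783, plus strand): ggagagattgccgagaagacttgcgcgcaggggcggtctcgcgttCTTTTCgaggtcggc
For GAS5, SNHG1 and SNHG3, none of which passed, the first 30 bases from a pyrimidine-led GENCODE start are given, with the tract in capitals. That start serves 6 of 29 GAS5 transcripts, 1 of 25 SNHG1 transcripts and 1 of 3 SNHG3 transcripts. It lies downstream of the RefSeq start by 1056 bases in GAS5, 406 in SNHG1 and 100 in SNHG3.
GAS5 (from 173867989 on chromosome 1, minus strand): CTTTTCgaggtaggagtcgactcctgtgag
SNHG1 (from 62855479 on chromosome 11, minus strand): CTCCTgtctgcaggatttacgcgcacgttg
SNHG3 (from 28506043 on chromosome 1, plus strand): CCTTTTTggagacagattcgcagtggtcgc
A match is a description of the letters and not a measured start in these cells.

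SNHG8 had the largest estimated rise of the 10 hosts. SNHG8 (ENSG00000269893, chr4:118278709-118279823, plus strand, GRCh38, a lincRNA of 923 exonic bases) hosts the H/ACA snoRNA SNORA24. It had 23.1, 29 and 28 CPM in shITGB5 libraries and 21.8, 19.1 and 21.6 CPM in shcontrol libraries. The lowest shITGB5 library, replicate 1, lay just above the highest shcontrol library, and the other 2 stood clear of it. Means were 26.7 ± 3.16 CPM in shITGB5 and 20.86 ± 1.49 CPM in shcontrol (SD, n = 3 each). The log2 change was 0.35 with an SE of 0.084, or 27.8% higher (95% interval 13.7% to 43.7%; edgeR, Benjamini-Hochberg adjusted p = 0.00144). These levels rest on 415 to 492 counts per shITGB5 library and 321 to 381 per shcontrol library.

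SNHG5 and SNHG6 each have more counts than SNHG8 and smaller estimated rises; whether the rises differ between hosts was not tested. SNHG5 (ENSG00000203875, chr6:85660950-85678748, minus strand, 2806 exonic bases) hosts the box C/D snoRNA SNORD50B in this annotation. It had 75.4, 78.8 and 81.0 CPM in shITGB5 libraries and 72.5, 68.5 and 62.7 CPM in shcontrol libraries, with no overlap. The log2 change was 0.21 (SE 0.049), or 15.3% higher (95% interval 7.8% to 23.4%; edgeR, Benjamini-Hochberg adjusted p = 0.00137). SNHG6 (ENSG00000245910, chr8:66921684-66926398, minus strand, 1247 exonic bases) had 71.6, 71.8 and 76.9 CPM in shITGB5 libraries and 68.1, 63.3 and 63.4 CPM in shcontrol libraries. Its groups did not overlap either, and replicate 3 of shITGB5 stood above the rest. The log2 change of SNHG6 was 0.18 (SE 0.048), or 13.0% higher (95% interval 5.71% to 20.9%; edgeR, Benjamini-Hochberg adjusted p = 0.00642). Without that library its adjusted p was 0.0809 and the log2 change 0.14.

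SNHG15 passed the threshold narrowly. SNHG15 (ENSG00000232956, chr7:44983023-44986961, minus strand, a lincRNA of 3647 exonic bases) had 26.8, 29.8 and 25.7 CPM in shITGB5 libraries and 24.2, 25.1 and 21.0 CPM in shcontrol libraries. The lowest shITGB5 library and the highest shcontrol library nearly met. The log2 change was 0.23 (SE 0.080), or 16.9% higher (95% interval 4.66% to 30.6%; edgeR, Benjamini-Hochberg adjusted p = 0.0448). Leaving out each library in turn kept the call in 2 of 6 fits, with adjusted p between 0.0279 and 0.286; it was lost without shITGB5 replicate 1 or 2 and without shcontrol replicate 1 or 3. DESeq2 gave an adjusted p of 0.0935.

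GAS5 did not pass the test, and its groups overlapped. GAS5 (ENSG00000234741, chr1:173863900-173868882, minus strand, 3631 exonic bases) had 55.8, 52.6 and 59.3 CPM in shITGB5 libraries and 56.9, 55.1 and 55.2 CPM in shcontrol libraries. The highest and the lowest values both came from shITGB5. The difference was 0.296% (95% interval -6.85% to 7.99%; edgeR, Benjamini-Hochberg adjusted p = 0.974).

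SNHG1, the most abundant host in CPM, also had overlapping groups. SNHG1 (ENSG00000255717, chr11:62851988-62855914, minus strand, 3756 exonic bases) had 109, 112 and 117 CPM in shITGB5 libraries and 112, 109 and 106 CPM in shcontrol libraries. Its log2 change was 0.05 (SE 0.039), with an interval of -2.16% to 9.11% (edgeR, Benjamini-Hochberg adjusted p = 0.509). The gene that starts beside it on the other strand is SLC3A2, the heavy chain of several amino acid transporters. SLC3A2 had 328, 354 and 342 CPM in shITGB5 libraries and 312, 309 and 308 CPM in shcontrol libraries, and rose by a log2 change of 0.14 (edgeR, Benjamini-Hochberg adjusted p = 0.000143). Whether the changes of SNHG1 and SLC3A2 differ was not tested.

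SNHG7 came nearest to the threshold among the 6 hosts that did not pass. SNHG7 (ENSG00000233016, chr9:136721366-136728184, minus strand, 4345 exonic bases) had 55.3, 65.5 and 62.6 CPM in shITGB5 libraries and 60.3, 52.4 and 56.9 CPM in shcontrol libraries. Replicate 1 of shITGB5 lay inside the shcontrol range and the other 2 above it. Its log2 change was 0.11 (SE 0.056; edgeR, Benjamini-Hochberg adjusted p = 0.2), and without shITGB5 replicate 1 it passed, at a log2 change of 0.18 and an adjusted p of 0.0318. Without shITGB5 replicate 2 or shcontrol replicate 2 its log2 change was 0.06, with adjusted p of 0.631 and 0.652.

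SNHG16, SNHG12 and SNHG3 had overlapping groups and intervals that span 0. SNHG16 (ENSG00000163597, chr17:76557766-76565348, plus strand) averaged 33.25 ± 2.8 CPM in shITGB5 and 31.41 ± 2.87 CPM in shcontrol (SD, n = 3 each), with replicate 2 the highest library of both groups. SNHG12 (ENSG00000197989, chr1:28578538-28583132, minus strand) averaged 19.87 ± 1.08 CPM in shITGB5 and 18.97 ± 1.09 CPM in shcontrol. SNHG3 (ENSG00000242125, chr1:28505980-28510892, plus strand) averaged 33.2 ± 3.06 CPM in shITGB5 and 32.39 ± 1.84 CPM in shcontrol. Their log2 changes were 0.08 for SNHG16, 0.07 for SNHG12 and 0.04 for SNHG3, with Benjamini-Hochberg adjusted p-values (edgeR) of 0.549, 0.704 and 0.824. With 1 library left out the log2 change ranged from 0.0093 to 0.16 for SNHG16, from 0.03 to 0.11 for SNHG12 and from 0.02 to 0.07 for SNHG1; SNHG16 was lowest without shITGB5 replicate 2, SNHG12 and SNHG1 without shITGB5 replicate 3. The sign of GAS5 and of SNHG3 depended on which library was left out.

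**Figure D2:**
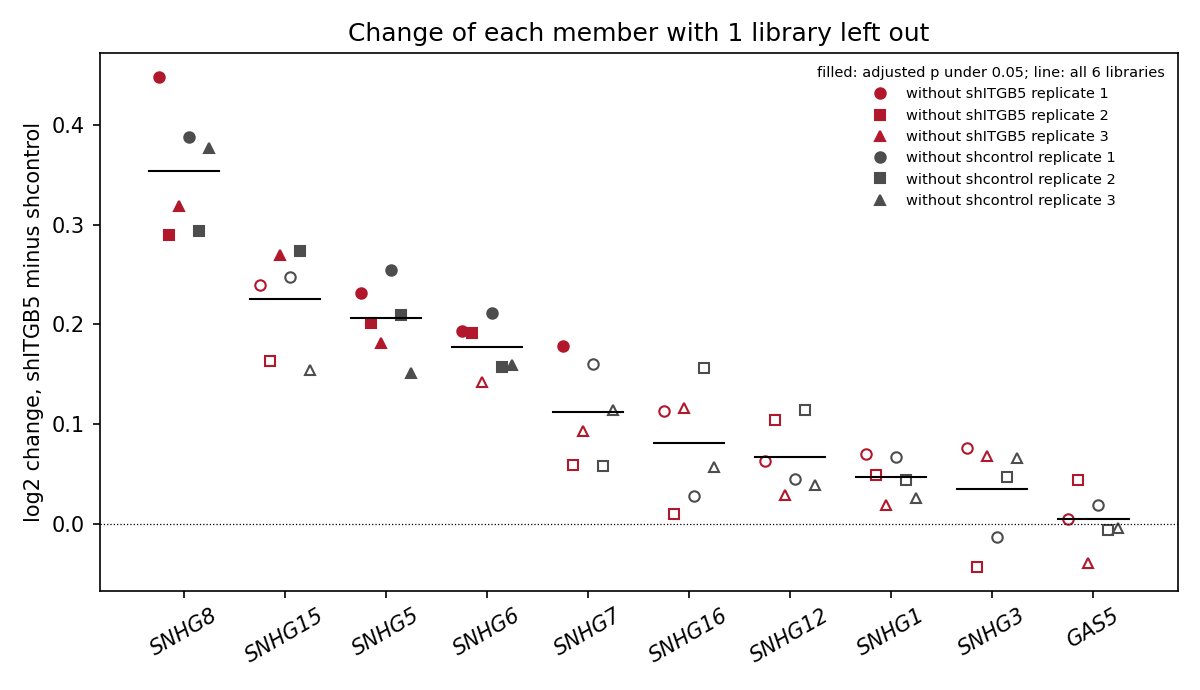
Log2 change (shITGB5 minus shcontrol) of each host gene with all 6 libraries (line) and with each library left out in turn (points), filled where the edgeR adjusted p is under 0.05. SNHG8 and SNHG5 stay filled throughout, SNHG15 in 2 of the 6 fits with a library left out, and GAS5 lies on both sides of 0.

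Ratios between hosts within a library do not depend on the scaling. SNHG8 per GAS5 was 0.414, 0.552 and 0.472 in shITGB5 libraries and 0.384, 0.347 and 0.391 in shcontrol libraries, without overlap. SNHG5 per GAS5 averaged 1.41 ± 0.0796 in shITGB5 and 1.22 ± 0.0723 in shcontrol, and SNHG6 per GAS5 averaged 1.32 ± 0.0431 in shITGB5 and 1.16 ± 0.0266 in shcontrol (SD, n = 3 each). Both ratios were also higher in every shITGB5 library than in every shcontrol library. SNHG15 per GAS5 overlapped, at 0.481, 0.566 and 0.434 in shITGB5 libraries and 0.425, 0.455 and 0.381 in shcontrol libraries. Set against SNHG1 in place of GAS5, the ratios of SNHG5, SNHG6 and SNHG8 were again separate and that of SNHG15 again overlapped. GAS5 and SNHG1 did not pass in these same libraries, so the ratios reuse the counts above and are no separate result. How often ratios of other genes to GAS5 or SNHG1 separate was not computed.

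**Figure D3:**
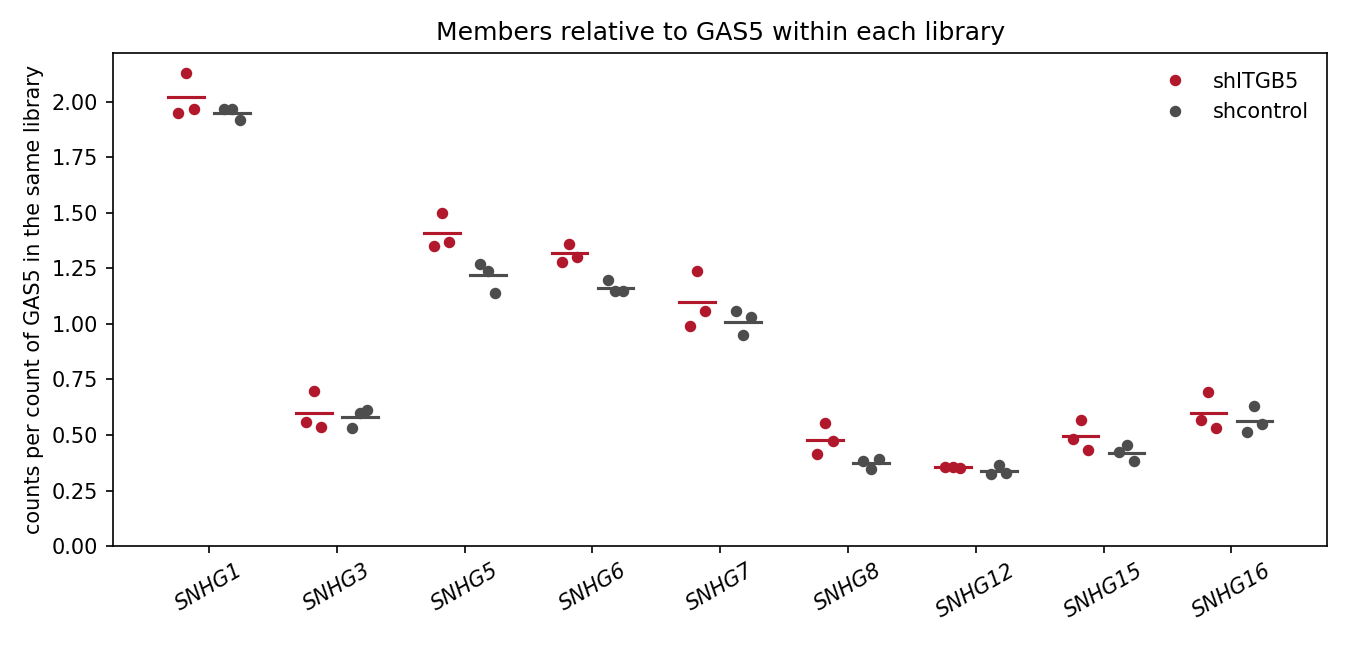
Ratio of each host gene's count to the GAS5 count in the same library, for 3 shITGB5 and 3 shcontrol libraries. SNHG5, SNHG6 and SNHG8 have all shITGB5 points above all shcontrol points, and the other 6 overlap.

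Levels of different hosts were compared per length, as CPM divided by the exonic length in kilobases (FPKM), computed from the counts and lengths in the table. SNHG6 was the highest, at 58.7 ± 2.36 FPKM in shITGB5 and 52.0 ± 2.11 FPKM in shcontrol. SNHG1 followed, at 29.9 ± 1.07 FPKM in shITGB5 and 28.9 ± 0.788 FPKM in shcontrol. SNHG5 and SNHG8 were next and overlapped each other in both groups, and in shITGB5 SNHG8 also overlapped SNHG1: SNHG5 had 27.9 ± 0.974 FPKM in shITGB5 and 24.2 ± 1.72 FPKM in shcontrol, and SNHG8 had 28.8 ± 3.41 FPKM in shITGB5 and 22.6 ± 1.63 FPKM in shcontrol. GAS5, at 15.3 ± 0.895 FPKM in shITGB5 and 15.3 ± 0.27 FPKM in shcontrol, and SNHG7, at 14 ± 1.21 FPKM in shITGB5 and 13 ± 0.911 FPKM in shcontrol, formed the middle and overlapped each other in shITGB5. SNHG3, SNHG15, SNHG16 and SNHG12 lay between 4.64 and 8.1 FPKM in shITGB5 and between 4.44 and 7.92 FPKM in shcontrol, with SNHG15 overlapping SNHG3 in shITGB5 and SNHG16 in shcontrol.

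These per-length levels depend on how reads over shared bases were counted, a rule not given in the sources used here. In the table, 2 of 710 genes whose every exonic base is shared with a gene of the other strand alone have any count (0.282%), and 91 of 1139 fully shared with a gene of the same strand (7.99%), against 53.7% of 41758 genes that share no base. SNHG6 shares 29.3% of its exonic bases with MCMDC2, SNHG7 shares 25.2% with FAM69B, SNHG16 shares 30.6% with AC015802.6 and SNHG3 shares 5.92% with RCC1. As an alternative, all counts of a host were divided by its unshared bases alone, as if no read over shared bases had been counted. Bases of nested snoRNA genes also counted as shared, so 63.6% of the exonic bases of SNHG6 remained. SNHG6 then came to 92.3 FPKM in shITGB5 and 81.8 FPKM in shcontrol. SNHG7 (20.4 FPKM in shITGB5 and 18.9 FPKM in shcontrol) stood above GAS5 (15.5 FPKM in each). SNHG16 came to 9.28 FPKM in shITGB5 and 8.78 FPKM in shcontrol, beside SNHG3 (9.09 FPKM in shITGB5 and 8.89 FPKM in shcontrol) and above SNHG15 (7.79 FPKM in shITGB5 and 6.66 FPKM in shcontrol). This alternative was chosen after the data were seen and leaves fold changes untouched. None of the tested genes that overlap a host passed the test: log2 changes were 0.05 for RCC1, 0.01 for FAM69B, 0.11 for MCMDC2, 0.02 for TRNAU1AP and -0.11 for ZBTB37.

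The snoRNA genes inside the hosts had few or no counts in this table. The table has 25 snoRNA genes inside 9 of the hosts on the same strand, and none inside GAS5 in this annotation. Of these, 22 had 0 counts in every library, and they are the 21 that lie wholly and the 1 (SNORD30) that lies partly within an exon of an annotated host transcript. The 3 outside host exons had counts: SNORA73B in SNHG3 had 11, 8 and 15 in shITGB5 libraries and 14, 10 and 17 in shcontrol libraries, while SNORD99 in SNHG12 and SNORD1B in SNHG16 had at most 4 in any library. Over the whole table, 0 of 152 snoRNA genes whose every base is shared with a gene of the same strand have any count. Of 728 snoRNA genes that share no base, 242 have counts (33.2%). The part of the counting rule in the zeros was not tested. A 0 in these libraries says nothing about the amount of the mature snoRNA. The snoRNAs of the hosts with the smallest adjusted p-values are shown from the GRCh38 genome with their boxes in capitals, the C box TGATGA and D box CTGA for SNORD50B and the ACA box for SNORA24, whose ACA stands 3 bases from the 3′ end.
SNORD50B (in SNHG5, chr6:85677589-85677658, minus strand): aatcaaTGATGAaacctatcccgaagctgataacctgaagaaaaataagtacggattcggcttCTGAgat
SNORA24 (in SNHG8, chr4:118279190-118279320, plus strand): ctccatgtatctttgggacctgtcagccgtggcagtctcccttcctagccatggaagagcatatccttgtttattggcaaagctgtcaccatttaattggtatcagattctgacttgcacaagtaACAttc

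Over all genes tested 8.31% rose and 6.74% fell, and the other snoRNA hosts are read against these shares. Of 16 further SNHG identifiers, 9 could be tested, 1 rose and none fell, with a median log2 change of 0.21. The 1 that rose was SNHG21, at 1.34, 1.63 and 1.08 CPM in shITGB5 libraries and 0.459, 0.716 and 0.506 CPM in shcontrol libraries (log2 change 1.25, SE 0.40; edgeR, Benjamini-Hochberg adjusted p = 0.023), on 8 to 27 counts per library. SNHG17 and SNHG4, the most abundant tested ones, had log2 changes of 0.08 and 0.0007. Apart from these and SNHG11, all averaged under 5 CPM in each group. Every shITGB5 library lay above every shcontrol library for SNHG11 (log2 0.21) and SNHG19 (0.42), and below for SNHG26 (-0.78). None of these genes other than SNHG21 passed the test. Of 16 tested noncoding hosts with other names, ZFAS1, which hosts box C/D snoRNAs, rose and none fell. ZFAS1 had 31.4, 31.8 and 33.7 CPM in shITGB5 libraries and 27.5, 28.3 and 25.4 CPM in shcontrol libraries, a log2 change of 0.25 (SE 0.072; edgeR, Benjamini-Hochberg adjusted p = 0.00905). The most abundant of them did not pass: LRRC75A-AS1 averaged 236.6 ± 8.98 CPM in shITGB5 and 240.4 ± 0.732 CPM in shcontrol, and DANCR 142.1 ± 4.77 CPM in shITGB5 and 138.8 ± 1.78 CPM in shcontrol (SD, n = 3 each). Among 209 tested protein-coding genes that hold a snoRNA, 22 rose (10.5%) and 17 fell (8.13%), near the shares over all genes, with a median log2 change of 0.01. The largest changes were falls of RAB30 (log2 -0.46), NCALD (-0.41) and CA5B (-0.36) and a rise of MVB12B (0.29).

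**Figure D4:**
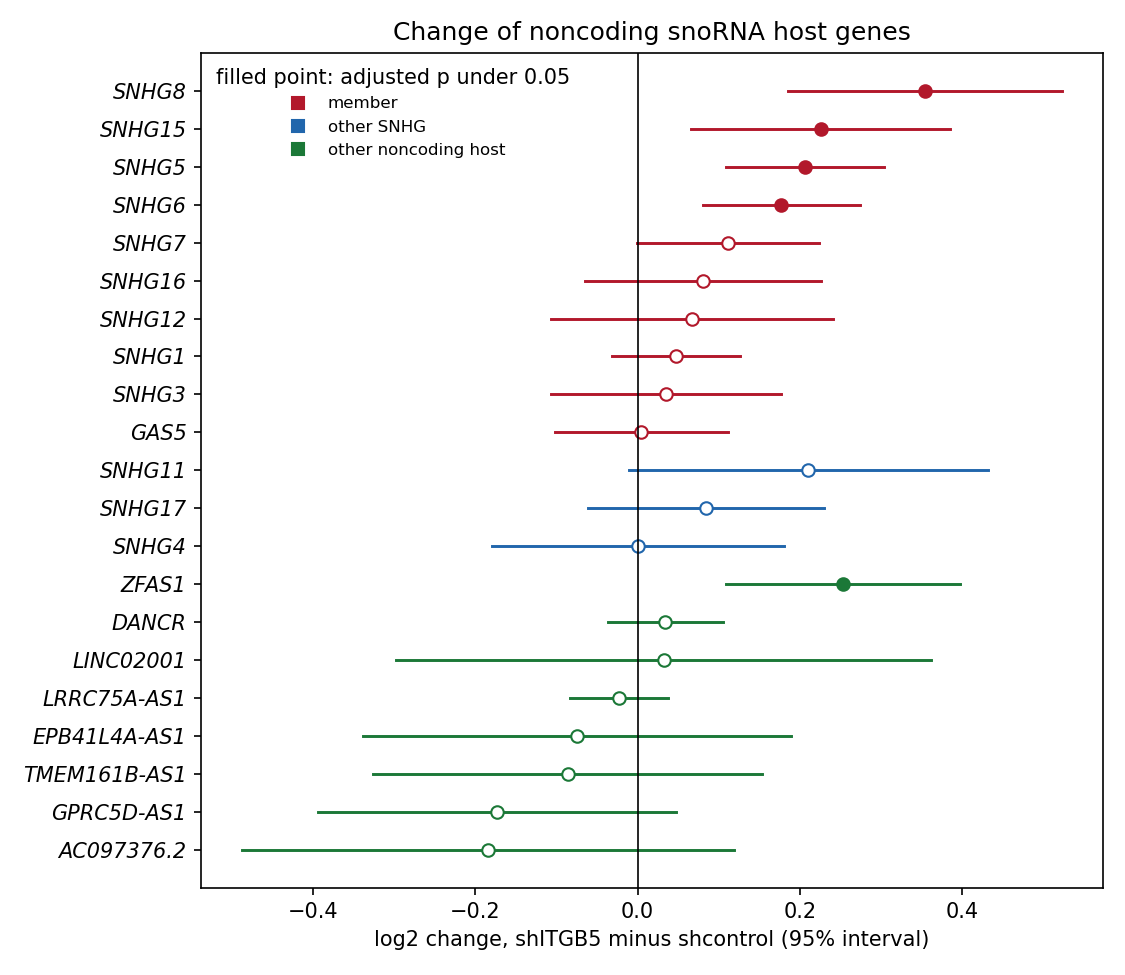
Log2 change with its 95% interval for the 10 host genes and for other noncoding snoRNA hosts with a mean of at least 5 CPM, filled where the edgeR adjusted p is under 0.05. SNHG8, SNHG15, SNHG5, SNHG6 and ZFAS1 are filled, and LRRC75A-AS1 and DANCR lie near 0 with narrow intervals.

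The 4 rises can be set beside genes of the same type, level and length. Of 149 other lincRNA, antisense and processed_transcript genes with a mean of at least 10 CPM, 4.7% rose and 9.4% fell. Of 6080 genes within the CPM range of the hosts (19.4 to 111), 12.2% rose and the median log2 change was 0.01. SNHG8, SNHG6 and SNHG5 are the 3 shortest hosts, and short genes rose more often in general. Among genes with a mean of at least 10 CPM, 19.7% rose at up to 1000 exonic bases, 20.2% at 1000 to 1500, 16.2% at 1500 to 3000, 12.6% at 3000 to 6000 and 11.1% above that. The part of length in the changes of the hosts was not tested.

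Genes whose products make snoRNA particles included 4 of 19 that rose (21.1%) and none that fell, with a median log2 change of 0.04; over all genes tested 8.31% rose. NOLC1, the nucleolar chaperone Nopp140 that binds snoRNPs, had 166, 173 and 167 CPM in shITGB5 libraries and 101, 103 and 107 CPM in shcontrol libraries. No library of one group came near the other, and the log2 change was 0.70 (edgeR, Benjamini-Hochberg adjusted p = 1.18e-23). NOP10 (log2 0.36, adjusted p = 2.44e-05) and DKC1 (0.16, adjusted p = 0.00206), subunits of the H/ACA particle, also rose in edgeR, as did the C/D methyltransferase FBL (0.10, adjusted p = 0.025), whose groups overlapped.

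Of 20 nonsense-mediated decay factors, none rose and PNRC2, a decapping cofactor, fell (log2 -0.21; edgeR, Benjamini-Hochberg adjusted p = 9.92e-06). Among 17 known targets of that decay, 5 rose (29.4%) and 1 fell (5.88%), with a median log2 change of 0.05. Over all genes tested 8.31% rose and 6.74% fell. ATF3 (0.43) and DDIT3 (0.43), stress-response transcription factors, TBL2 (0.25) and the uridine phosphorylase UPP1 (0.22) led the rises. ATF3 and DDIT3 are also targets of the stress-induced factor ATF4, and the list does not separate the pathways.

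Genes that control TOP mRNAs through mTORC1 gave 2 rises (10%) and 1 fall (5%) among 20, near the 8.31% and 6.74% over all genes tested. SESN2, an mTORC1 inhibitor induced by stress, and AKT1S1, the mTORC1 subunit PRAS40, rose (log2 0.25 and 0.17), and RHEB, the mTORC1 activator, fell (-0.13, groups overlapping). Of 17 tested non-ribosomal mRNAs with a TOP start, 4 rose (23.5%) and 6 fell (35.3%), with a median log2 change of -0.04. Among these the translation factor EIF4B (-0.26), EIF3E (-0.15) and HNRNPA1 (-0.12) fell, while EIF3F (0.23) rose. Of 12 tested genes of the glucocorticoid receptor list, which bears on GAS5, 1 rose (8.33%) and 4 fell (33.3%), with a median of -0.02. Over all genes tested 8.31% rose and 6.74% fell. BIRC3 (-0.60), TSC22D3 (-0.55) and SGK1 (-0.26) were among the falls, and FKBP5 (0.30) was the 1 rise. The part of the receptor in these changes was not tested.

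**Figure D5:**
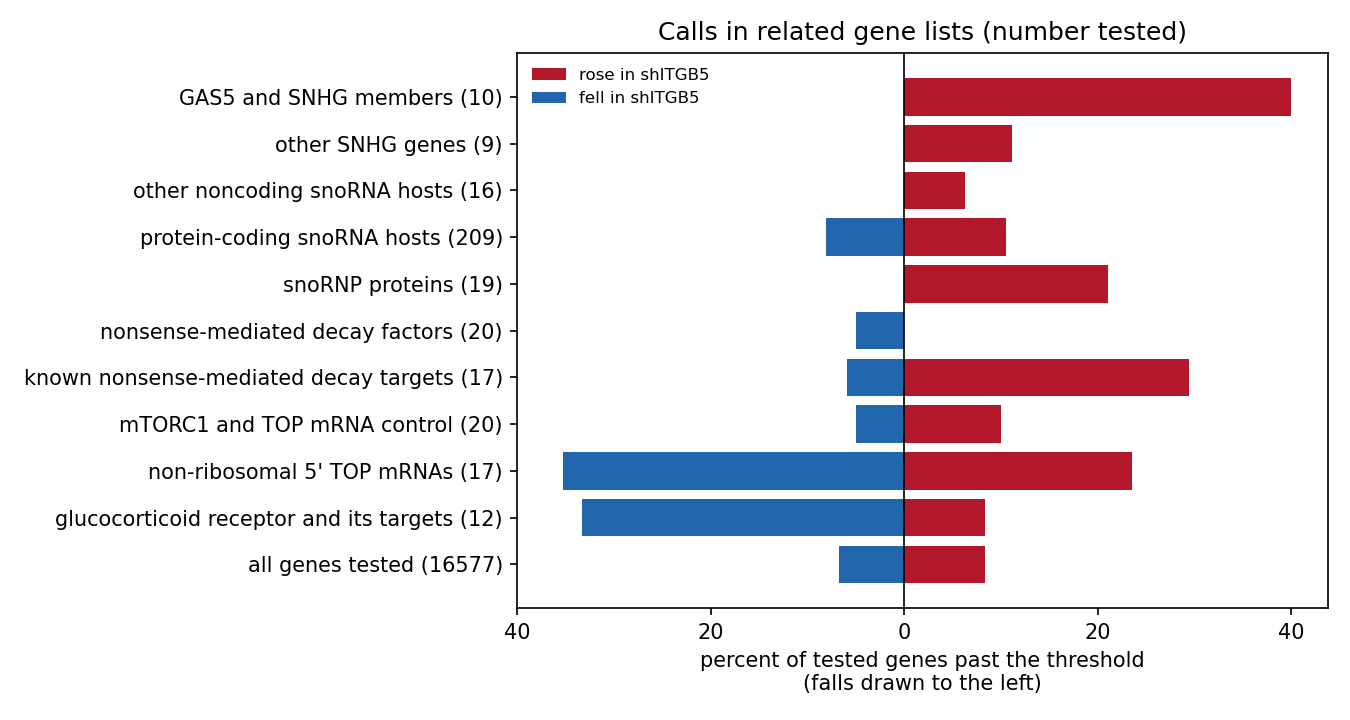
Percent of tested genes in each list that rose (right) or fell (left) in shITGB5 against shcontrol at an edgeR adjusted p under 0.05, with all genes tested beside them. GAS5 and the SNHG members and the snoRNP proteins show rises and no falls. The other SNHG genes (1 rise among 9 tested) and the other noncoding hosts (1 among 16) also show no falls. The share of rises in the other noncoding hosts was 6.25%, against 8.31% over all genes tested. The non-ribosomal TOP mRNAs show 4 rises and 6 falls.

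Among the genes whose pattern over the 6 libraries lay nearest to that of SNHG8, by root mean square difference of centred log2 CPM among 10070 genes, were IFT27 (0.0565), CCDC183 (0.0571), SIAH2 (0.061) and C19orf24 (0.0644). IFT27 had 16.7, 20.6 and 18.9 CPM in shITGB5 libraries and 14.9, 14.3 and 14.5 CPM in shcontrol libraries. Like SNHG8, it had its lowest shITGB5 value in replicate 1. These genes were picked for such likeness, so it is no separate result. IFT27, SIAH2 and C19orf24 rose, and CCDC183 did not pass (edgeR, Benjamini-Hochberg adjusted p = 0.062).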

How the data were processed

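RNA-seq of Huh7 cells was available as 1 table of whole-number gene counts, which the authors deposited; all of its values (100%) were whole, although its name refers to FPKM. Its gene bounds and lengths for the 10 hosts equal GENCODE 29 (GRCh38). Aligner, counting tool and strand setting: not given in the sources used here. For columns, the code S was taken to mean ITGB5 knockdown and NC the control hairpin; no label spells this out. Totals were 15777922 to 18011313 counts, so a count of 0 allows up to 0.167 to 0.19 CPM (3 counts), for counting error only.

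Genes were kept by filterByExpr (16577 of 58735), scaled by TMM and tested with edgeR 4.0.16 (R 4.3.3; quasi-likelihood, two-sided, Benjamini-Hochberg over all genes kept, threshold 0.05), with all 6 libraries and no covariate. The fit was tested on simulated data. The 10 hosts, the gene lists and the tests were chosen with earlier results of these data known. Named genes were the hosts, ITGB5, snoRNA genes within hosts, overlapping and adjoining genes, up to 4 genes past the threshold with the largest change per list (the most abundant where none passed), and the 5 genes nearest in pattern to SNHG8, of which 1 is not reported here. LRRC75A-AS1 and DANCR, the most abundant other hosts, fall outside this rule and were named after their values were seen. The same holds for SNHG17, SNHG4, SNHG11, SNHG19 and SNHG26 and for the markers DCN and KDR. Alternatives were other scalings and filters, DESeq2 1.42.0, limma-trend 3.58.1, a minimum fold of 1.2, a replicate block and leaving out each library. Sequences came from RefSeq (GRCh38.p14) and the GRCh38 genome.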

Additional observations from a re-analysis of the deposited data

How the results depend on the processing

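The number of host genes past the threshold was 4, and it was 3 with no low-count filter and with DESeq2, 4 with the replicate block, with RLE, upper-quartile or library-total scaling, with a mean of at least 1 CPM and with limma-trend, and 3 to 4 with a library left out. Against a minimum fold of 1.2 it was 0, and the counts there were 149 of all genes (83 higher and 66 lower, against 2495) and 0 of the other snoRNA hosts (against 41); such a test asks for a larger change. With a library left out, all genes gave 1939 to 2183 and the other hosts 29 to 39. With the replicate block they gave 2303 and 37. Replicate numbers were not treated as pairs. Deviations of log2 CPM from the group mean correlated at -0.0208, -0.102 and -0.166 between libraries numbered 1, 2 and 3. These used genes with a mean of at least 10 CPM. With a library left out, the log2 change of GAS5 ranged from -0.0399 to 0.0433 and was below 0 in 3 fits: -0.0399 without shITGB5 replicate 3, -0.006 without shcontrol replicate 2 and -0.0045 without shcontrol replicate 3. That of SNHG3 ranged from -0.0432 to 0.0754 and was -0.0432 without shITGB5 replicate 2 and -0.013 without shcontrol replicate 1. The cause was not tested. Of 150 fits of a host under an alternative, 133 kept direction and side of the threshold, 11 lost the call, 1 gained it and 5 changed sign. SNHG8 and SNHG5 passed in 14 of 15 alternatives, SNHG6 in 13 and SNHG15 in 8. With 321 to 492 counts per library SNHG8 has an interval of 13.7% to 43.7%, and changes of a few percent in any host are not detectable at this depth. Larger changes are also not excluded in some hosts that did not pass. The interval was -7.16% to 18.2% for SNHG12, -4.38% to 17% for SNHG16 and -7.17% to 13.1% for SNHG3. Each reaches past 13.0%, the smallest rise that passed, while those of GAS5 and SNHG1 ended at 7.99% and 9.11%.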
